A study of Mus musculus with 2 samples.

Results

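The TRFSS probes are short oligos on a two-colour small-RNA microarray. They were chosen as the non-control spots whose probe identifier carries the token TRFSS directly before its number, and no measured value entered that choice. There were 3213 of them among 14400 small-RNA probes, and each had 1 spot on each array. An identifier consists of a start common to all small-RNA probes, the token, a number between 100000008 and 100010064 and a common end. Only the token and the number are printed here, as in TRFSS100009099. The sources used here give neither the meaning of the token nor the RNA that each probe matches nor the letters of the probes, so the probes are described by identifier, without sequence, RNA name or position in the genome.

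The study compared 2 arrays of BV-2 cells, an immortalised mouse microglial line. One array held RNA of cells taken through oxygen and glucose deprivation and then returned to oxygen and regular medium (OGD/R), and the other held RNA of cells labelled as control. For OGD/R the medium was exchanged for one free of glucose and serum, and the plates stood for 2 h at 37 °C in an atmosphere of 95% N2 and 5% CO2. How long the cells were kept in oxygen afterwards is not stated in these sources. Cy5 on each array marked the modified RNA that was eluted from immunoprecipitation beads (IP), and Cy3 marked the RNA left in the supernatant (Sup), which is labelled unmodified. Neither the antibody nor the modification it binds is stated.

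Microglia are the resident macrophages of the brain. Oxygen and glucose deprivation followed by reoxygenation is a culture model of ischemia and reperfusion, in which cells meet a loss of energy supply and then oxidative stress. Immunoprecipitation with an antibody against a chemical mark on RNA separates molecules that carry the mark from those that do not. The share of a probe's signal that lies in the IP channel therefore reads, in arbitrary units, how its RNA was split between both fractions. The dye normalization of the scanner software balances the channels within each array, so a shift of the whole array in that split cannot be read here.

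With 1 array per group, no difference between OGD/R and control has a replicate check, and no p-value was computed. Differences are OGD/R minus control on the log2 scale, and a probe was counted as higher or lower at a difference of at least 2-fold. The error beside a ratio is the scanner software's own error, which covers technical error of single spots only. Signals are processed fluorescence intensities in the units of the scanner. Both arrays came from 1 scan of 1 slide. No TRFSS spot was saturated. An outlier mark lay on 7 TRFSS spots of the OGD/R array and on 1 of the control array, which removed 7 probes and left 3206. The median TRFSS spot read 20 in OGD/R and 18 in control in IP before correction, over local backgrounds of 14 in OGD/R and 13 in control, so many members lay close to background.

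Fewer TRFSS probes gave a signal in IP than in Sup, with little difference between the arrays. In IP, 1172 of 3206 probes (36.6%, 95% exact binomial interval 34.9 to 38.3) were well above background in OGD/R, and 1196 (37.3%, 35.6 to 39.0) were in control. In Sup, 1677 probes (52.3%, 50.6 to 54.0) were well above background in OGD/R, against 1703 (53.1%, 51.4 to 54.9) in control. These intervals cover counting error over probes only. They treat probes as independent, although detection was largely shared among probes with consecutive numbers, so they are too narrow. The share in IP lay below that of all small-RNA probes, which was 40.0% in OGD/R and 40.1% in control, while the share in Sup was close to theirs of 51.8% in OGD/R and 51.7% in control. It also lay below that of the TRF probes, of which 44.9% in OGD/R and 44.6% in control were well above background in IP, and above that of the MIRNASS probes at 29.6% in OGD/R and 29.0% in control.

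The detected probes were mostly the same on both arrays. On both arrays, IP and Sup were each well above background for 998 probes (31.1%), which are called measured below. Another 1303 (40.6%) were well above background nowhere. The Sup channel alone detected 393 probes (12.3%) on both arrays, against 10.5% of all small-RNA probes. The IP channel alone detected 34 (1.06%) on both arrays, against 2.07% of all small-RNA probes and 8.82% of the PST probes.

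The measured TRFSS probes spanned more than 3 orders of magnitude in signal. In IP the signals ran between 183 and 626449 with a median of 646 in OGD/R, and between 190 and 591090 with a median of 749 in control. In Sup they ran between 113 and 426905 with a median of 596 in OGD/R, and between 117 and 420077 with a median of 680 in control. The 3 brightest members were TRFSS100007504, TRFSS100007472 and TRFSS100007364. TRFSS100007472 read 626449 in IP and 396435 in Sup in OGD/R, against 591090 in IP and 401726 in Sup in control. TRFSS100007504 read 606916 in IP and 426905 in Sup in OGD/R, against 588305 in IP and 417950 in Sup in control. TRFSS100007364 read 602638 in IP and 330178 in Sup in OGD/R, against 588828 in IP and 420077 in Sup in control. The signals of these members were close on both arrays, except for the lower Sup of TRFSS100007364 in OGD/R.

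The IP share is 100 times IP over the sum of both channels. Over the measured TRFSS probes it spread widely around a median slightly above an even split. Its median over the 998 measured probes was 53.7% (52.3 to 55.9) in OGD/R and 54.3% (52.5 to 55.7) in control. These are binomial order-statistic intervals of the median over probes and do not give the spread of single shares. The lower and upper quartiles of the share were 39.5% and 64.9% in OGD/R, and 39.9% and 63.8% in control. On both arrays 521 probes (52.2%) had a share above 50%, against 43.8% of all small-RNA probes, 35.4% of the TRF probes and 64.3% of the PST probes. A share below 50% on both arrays was found for 365 (36.6%), against 46.2% of all small-RNA probes. Shares above 80% on both arrays were found for 42 TRFSS probes (4.21%), against 5.09% of all small-RNA probes and 2.15% of the TRF probes. Shares below 20% were found for 49 (4.91%), against 5.23% of all small-RNA probes and 4.72% of the TRF probes. The level of these shares rests on the dye normalization, since before it the TRFSS median was 36.4% in OGD/R and 36.6% in control. It rests on the filter too. The measured set leaves out the 393 probes detected in Sup alone and the 34 detected in IP alone on both arrays. With at least 1 channel detected, or with no filter, the median lay below 50% in OGD/R and in control.

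At the high end, TRFSS100004950 had an IP share of 96.7% in OGD/R and 96.5% in control. TRFSS100007276 followed with 96.6% in OGD/R and 95.8% in control. TRFSS100006920, TRFSS100006963 and TRFSS100006364 completed the 5 highest, with shares of 95.1%, 95.4% and 95.7% in OGD/R and of 96.2%, 94.4% and 93.5% in control. All 5 had an IP signal above the TRFSS median on both arrays, as for TRFSS100004950 with 33639 in IP and 1145 in Sup in OGD/R, against 35897 in IP and 1292 in Sup in control. At the low end, TRFSS100007322 had a share of 5.53% in OGD/R and 5.54% in control. Its IP read 631 in OGD/R and 486 in control, and its Sup read 10771 in OGD/R and 8278 in control. TRFSS100001623 had 8.65% in OGD/R and 11.1% in control, TRFSS100005152 had 10.98% in OGD/R and 9.96% in control, and TRFSS100004820 had 11.2% in OGD/R and 12.1% in control. TRFSS100008926, also among the 5 lowest, had 11.3% in OGD/R and 9.95% in control, although both of its channels were much dimmer in OGD/R. The probes largely kept their order between the arrays, with a Pearson r of 0.95 and a Spearman rho of 0.93 between the OGD/R and the control ratio across the 998 probes. Probes are not independent replicates, and both arrays share their slide, their scan and the probes' own response.

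The IP/Sup ratio of the TRFSS probes as a whole was nearly the same in OGD/R and control. Each array's ratio was centred on the median of all measured RNAs. The difference had a median of 0.016 (-0.022 to 0.053) over 998 probes and an SD of 0.41, and it ran between -1.48 and 1.80. The median over all measured small-RNA probes was 0.0035. The ratio was higher in OGD/R by 2-fold or more for 15 TRFSS probes (1.5%), beside 1.04% of all measured RNAs. It was lower by 2-fold or more for 9 (0.902%), beside 1.12% of all measured RNAs. The median scanner error of a difference was 0.36. Of the 998 differences, 67 exceeded 2 times the probe's own scanner error. That count was made for TRFSS probes only, with no share over all RNAs beside it.

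The higher and the lower TRFSS ratios differed in the channel that moved more. Among the 15 higher probes the Sup signal moved more than the IP signal in 14, with a median difference of -1.24 in Sup and -0.014 in IP. Of these 15, 6 lay in a run of consecutive numbers with another higher probe. Among the 9 lower probes the Sup signal moved more in 3, with a median difference of 0.37 in Sup and -0.68 in IP, and none lay in a run with another lower probe. The lower probes were also dimmer, with a median log2 sum of both channels of 9.21 in OGD/R and 9.54 in control, against 11.2 in OGD/R and 11.5 in control for the higher ones. A further limit was set after the data were seen. Both channels on both arrays had to lie at least 2-fold above the dimmest signal called well above background. This left 9 higher and 0 lower probes among 708. The limit and the split by channel were applied to TRFSS probes only, so these counts have no share over all RNAs beside them.

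The largest higher ratio was that of TRFSS100009099. Its IP read 1844 in OGD/R and 1650 in control, and its Sup read 752 in OGD/R and 2389 in control. The IP share was 71.0% in OGD/R and 40.9% in control, and the ratio differed by 1.80 with a scanner error of 0.32. Most of that difference lay in the Sup channel. Its run mates on either side, TRFSS100009098 and TRFSS100009100, had ratios that differed by 0.99 and 0.81. Their shares were 59.4% and 50.7% in OGD/R, against 42.0% and 36.5% in control, so all 3 probes of the run had a larger IP share in OGD/R.

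TRFSS100008972 came next with a ratio difference of 1.39 (scanner error 0.49), and both of its channels were lower in OGD/R. TRFSS100001215 read 7715 in IP and 3981 in Sup in OGD/R, against 5777 in IP and 7507 in Sup in control. Its IP signal was higher and its Sup signal lower in OGD/R, for a ratio difference of 1.31 (scanner error 0.30) and a share of 66.0% in OGD/R and 43.5% in control. Its run mates TRFSS100001214 and TRFSS100001216 differed less, by 0.46 and 0.60. TRFSS100006650 read 1452 in IP and 1183 in Sup in OGD/R, against 1950 in IP and 3729 in Sup in control. This gave a ratio difference of 1.21 (scanner error 0.31), with smaller differences of 0.26 and 0.49 at its run mates TRFSS100006651 and TRFSS100006652. TRFSS100006298 and TRFSS100005614, both with a ratio difference of 1.25, had scanner errors of 0.48 and 0.58 and are described with their runs.

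The lower ratios came from faint spots. TRFSS100009446 read 210 in IP and 210 in Sup in OGD/R, against 347 in IP and 126 in Sup in control. Its share was 50.02% in OGD/R and 73.3% in control, with a ratio difference of -1.48 (scanner error 0.52). Its IP signal in OGD/R was close to 165, the lowest IP signal that was well above background on that array. TRFSS100006078 differed by -1.22 (0.38), TRFSS100009611 by -1.17 (0.41), TRFSS100003110 by -1.17 (0.37), TRFSS100006083 by -1.15 (0.40) and TRFSS100009338 by -1.05 (0.48), where the value in parentheses is the scanner error. Among these 5, the IP signal in OGD/R lay between 188 for TRFSS100009611 and 272 for TRFSS100003110. Their run mates did not share the direction in every case: TRFSS100006079, next to TRFSS100006078, differed by -0.90, while TRFSS100003111, next to TRFSS100003110, differed by 0.31.

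The ratio difference also varied with brightness. With the TRFSS probes cut into 4 groups of about equal size by their mean log2 sum of both channels, its median was -0.086 and -0.075 in the 2 dimmer groups and 0.046 and 0.13 in the 2 brighter ones. Over all measured RNAs in the same brightness ranges the medians were -0.019, -0.013, 0.014 and 0.026. Of the 15 higher probes, 10 fell in the dimmer of the 2 brighter groups (249 probes), beside 17 of 1122 measured RNAs in that range. Of the 9 lower probes, 6 fell in the dimmest group (250 probes), beside 20 of 1089 measured RNAs. The counts of measured RNAs in these ranges include the TRFSS probes themselves. Over all measured RNAs, too, the dimmest range held the most lower ratios. The part of brightness in these differences was not tested. By the 4 regions of the array surface the TRFSS median ran between -0.088 and 0.055.

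In single channels, Sup signals that were lower in OGD/R made up most of the TRFSS probes past 2-fold. The Sup difference had a median of -0.066 (-0.091 to -0.043) over 1563 probes well above background in Sup on both arrays, against -0.033 over all small-RNA probes. Sup was at least 2-fold lower for 36 TRFSS probes (2.30%), beside 1.82% of all RNAs so tested, and at least 2-fold higher for 8 (0.512%), beside 1.39%. The IP difference had a median of 0.00032 (-0.023 to 0.028) over 1063 probes, against 0.042 over all small-RNA probes. IP was at least 2-fold higher for 7 TRFSS probes (0.659%), beside 1.32%, and at least 2-fold lower for 5 (0.470%), beside 0.596%. Only the TRF probes had the other balance in Sup, with 52 of 2163 higher (2.40%) and 13 lower (0.601%). More probes were lower than higher in Sup also under MIRNASS (2.15% lower, 1.46% higher) and MIRNA (1.55% lower, 1.00% higher). The same held under PST (5.31% lower, 0.483% higher). The size and direction of the medians rest on the scaling of each channel to its 75th percentile over detected RNAs. Scaling by the spike-in probes turned the TRFSS Sup median to 0.40 and left 14 probes lower and 100 higher, while it moved the Sup median of all RNAs to 0.43.

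The 36 lower Sup signals were gathered along the identifier numbers. They fell in 21 runs of consecutive numbers, and in 6 runs all 3 probes were among them. Counting also the probes whose Sup was well above background in control only, with their fold as a lower bound, 8 of 434 TRFSS runs of 3 with every probe well above background in control had Sup at least 2-fold lower in all 3 probes. The same held for 16 of 1538 such runs of any token (1.04%). Beside the TRFSS runs, these were 6 of 304 MIRNASS runs, 1 of 611 TRF runs and 1 of 189 MIRNA runs. The share among MIRNASS runs was thus close to that among TRFSS runs. In the other direction 1 of 412 TRFSS runs had Sup at least 2-fold higher in all 3 probes, beside 0.528% of runs of any token. In IP 2 of 269 TRFSS runs were lower in all 3 probes, beside 0.391%, and 1 of 262 was higher, beside 0.49%. These runs were singled out after their values were seen.

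In 5 of the 8 runs the Sup signal was lower in OGD/R by more than 5-fold in every probe. In the run of TRFSS100008970 to TRFSS100008972, Sup read 715, 580 and 715 in OGD/R, against 8135, 6359 and 6921 in control. Sup was thus 11.05-fold, 10.6-fold and 9.40-fold lower. IP read 78.2, 122 and 191 in OGD/R, against 650, 594 and 696 in control. In OGD/R only TRFSS100008972 was well above background in IP, so IP was lower by at least 3.57-fold and at least 3.27-fold for TRFSS100008970 and TRFSS100008971 and by 3.30-fold for TRFSS100008972. The sum of both channels of TRFSS100008972 was 7.97-fold lower in OGD/R, the largest such difference among the measured TRFSS probes.

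In the run of TRFSS100008926 to TRFSS100008928 both channels were lower too. Sup read 1598, 594 and 2154 in OGD/R, against 10625, 6526 and 11630 in control, or 6.45-fold, 10.7-fold and 5.24-fold lower. IP read 204, 165 and 484 in OGD/R, against 1174, 663 and 1552 in control, or 5.22-fold, at least 3.64-fold and 2.90-fold lower. The sum of both channels was 6.21-fold lower for TRFSS100008926 and 4.74-fold lower for TRFSS100008928. The IP share of TRFSS100008926 was 11.3% in OGD/R and 9.95% in control, and that of TRFSS100008928 was 18.4% in OGD/R and 11.8% in control, so the drop in signal was much larger than the shift in share.

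The other 3 of these runs were seen almost wholly in Sup. In the run of TRFSS100002882 to TRFSS100002884, Sup read 131, 126 and 143 in OGD/R, against 1137, 1232 and 1384 in control, which is 8.41-fold, 9.50-fold and 9.39-fold lower. In the run of TRFSS100002926 to TRFSS100002928, Sup read 94.5, 59.9 and 88.4 in OGD/R, where no probe was well above background, against 844, 788 and 783 in control. That makes it at least 7.69-fold, 7.17-fold and 7.13-fold lower. In the run of TRFSS100003010 to TRFSS100003012, Sup read 81.6, 75.7 and 56.2 in OGD/R, again not well above background, against 733, 870 and 797 in control, at least 6.68-fold, 7.92-fold and 7.25-fold lower. In IP none of these 9 probes was well above background in OGD/R, and only TRFSS100002884 was in control. Around TRFSS100008926, the run before did not share the drop: TRFSS100008922, TRFSS100008923 and TRFSS100008924 read 835, 1233 and 197 in Sup in OGD/R, against 789, 1273 and 223 in control. In the run after, TRFSS100008932 read 769 in OGD/R and 900 in control, while TRFSS100008930 and TRFSS100008931 were near background, at 69.7 and 41.1 in OGD/R and 143 and 126 in control. Scaled by the spike-in probes, all 5 runs stayed lower by at least 3.80-fold in every probe. With normexp background correction, whose offset compresses low signals, the runs at TRFSS100008926 and TRFSS100008970 stayed past 2-fold and the smallest fold in the other 3 was between 1.47 and 1.76.

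The remaining 3 of the 8 runs had a smaller drop in Sup with little difference in IP. In the run of TRFSS100009098 to TRFSS100009100, Sup read 2292, 752 and 935 in OGD/R, against 5173, 2389 and 2393 in control. IP read 3348, 1844 and 961 in OGD/R, against 3750, 1650 and 1375 in control. The runs at TRFSS100006298 and TRFSS100006302 lie 1 skipped number apart. TRFSS100006298 read 2699 in IP and 255 in Sup in OGD/R, against 3392 in IP and 775 in Sup in control. TRFSS100006304 read 1703 in IP and 236 in Sup in OGD/R, against 2090 in IP and 643 in Sup in control. Over these 6 probes Sup was between 2.04-fold and 2.95-fold lower. None of these 3 runs kept all of its probes past 2-fold in Sup once channels were scaled by the spike-in probes, with a smallest fold of 1.48 to 1.60, or corrected with normexp, with one of 1.19 to 1.67.

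The single run with higher signals was that of TRFSS100000162 to TRFSS100000164. IP read 2421, 2585 and 2661 in OGD/R, against 954, 899 and 994 in control, or 2.80-fold, 3.17-fold and 2.95-fold higher. Sup read 320, 307 and 334 in OGD/R, against 103, 102 and 118 in control, where only TRFSS100000164 was well above background. Sup was thus at least 2.92-fold and at least 2.80-fold higher for TRFSS100000162 and TRFSS100000163 and 2.92-fold higher for TRFSS100000164. The IP share of TRFSS100000164 was 88.9% in OGD/R and 89.4% in control, so both channels differed alike. The sum of its channels was 2.84-fold higher in OGD/R.

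The summed signal of both channels was slightly lower in OGD/R over the TRFSS probes. Its difference had a median of -0.071 (-0.093 to -0.044) over 998 probes, against -0.038 over all measured small-RNA probes and 0.051 over the TRF probes. It was at least 2-fold higher for 2 TRFSS probes (0.20%), beside 0.733% of all measured RNAs, and at least 2-fold lower for 8 (0.802%), beside 0.794%. Besides TRFSS100000164, the other higher probe was TRFSS100008264, which read 757 in IP and 239 in Sup in OGD/R, against 338 in IP and 141 in Sup in control. Its run mates TRFSS100008262 and TRFSS100008263 were not well above background in any channel. TRFSS100002824, TRFSS100006943 and TRFSS100005258 came next with differences of 0.83, 0.73 and 0.64, below the threshold. On the lower side, TRFSS100000618 read 205 in IP and 388 in Sup in OGD/R, against 509 in IP and 900 in Sup in control, a 2.25-fold lower sum with IP shares of 34.5% in OGD/R and 36.1% in control. TRFSS100006646 read 1449 in IP and 1307 in Sup in OGD/R, against 2210 in IP and 4049 in Sup in control, a 2.15-fold lower sum. Its run mates TRFSS100006647 and TRFSS100006648 differed by 0.020 and 0.19 in the log2 sum and did not share its drop. A similar drop was seen in the runs that follow, at TRFSS100006650 (-1.03) and TRFSS100006655 (-1.05). Under scaling by the spike-in probes the TRFSS median of the sum was 0.37 and that of all RNAs 0.40, so the sign of the median depends on the scaling.

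Detection on 1 array only was somewhat more frequent in control. In IP 109 TRFSS probes (3.40%) were well above background in OGD/R only, beside 2.9% of all RNAs, and 133 (4.15%) were in control only, beside 3.01%. In Sup 114 (3.56%) were in OGD/R only, beside 3.48%, and 140 (4.37%) in control only, beside 3.34%. Most of these probes lay near background on both arrays. Among the probes seen in OGD/R only, the bound on the fold reached 2 for 6 in IP and 8 in Sup. Among those seen in control only, it did so for 6 in IP and 8 in Sup. Bounds were computed for TRFSS probes only, so these counts have no share over all RNAs beside them. The 3 largest bounds toward control in Sup belonged to TRFSS100003011, TRFSS100002926 and TRFSS100003012, and in IP to TRFSS100008927, TRFSS100008970 and TRFSS100008971, all in runs described above. Toward OGD/R in IP, TRFSS100007443 read 389 in OGD/R and 148 in control, at least 2.38-fold higher. TRFSS100002658 read 394 in OGD/R and 185 in control, and TRFSS100000425 read 372 in OGD/R and 166 in control, at least 2.35-fold and at least 2.27-fold higher. Toward OGD/R in Sup, TRFSS100008214 read 295 in OGD/R and 100.4 in control, at least 2.69-fold higher, after TRFSS100000162 and TRFSS100000163.

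The TRFSS numbers were laid out in triplets. Of 1092 runs of consecutive numbers, 1028 had 3 probes and together held 96.0% of the members. The others had 1 probe (14 runs), 2 (44), 4 (4), 5 (1) or 6 (1). In 687 cases the next run began after 1 skipped number. Of the runs of 3, all probes were measured in 232, 2 probes in 70, 1 in 132 and none in 594, so detection was largely shared within a run.

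Probes of one run had similar levels and similar IP shares. Over the 232 fully measured runs the median SD within a run was 5.10 percentage points for the IP share in OGD/R and 4.64 in control, against an SD over their 696 probes of 17.3 points in OGD/R and 16.3 in control. For the log2 sum of channels it was 0.31 in OGD/R and 0.27 in control, against 2.13 in OGD/R and 2.12 in control over probes. For the ratio difference the SD within runs was 0.21, against 0.41 over probes. The 3 positions of a run had nearly the same median IP share, between 56.0% and 57.3% in OGD/R and between 54.7% and 56.4% in control. Relative to the spread over probes, the likeness within runs was thus closer for levels and shares than for the ratio difference.

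The likeness reached past the single run. The Pearson r of the centred ratio between probes 1 number apart was 0.72 in OGD/R and 0.71 in control (517 pairs). It was 0.62 in OGD/R and 0.60 in control for probes 2 apart (424 pairs), and 0.59 in OGD/R and 0.56 in control for probes 4 apart (497 pairs), which lie in neighbouring runs. At 10 apart it was 0.28 in OGD/R and 0.24 in control (114 pairs), and at 50 apart 0.11 in OGD/R and 0.0083 in control (121 pairs). The ratio difference had an r of 0.41, 0.37, 0.31, 0.15 and 0.11 at these distances. Probes near in number lay far apart on the array, with a median distance of 64 to 74 spots at every distance in number. MIRNASS probes were more alike within 2 numbers, with an r of 0.86 and 0.89 in OGD/R at 1 and 2 apart, and no longer alike at 4 apart, with 0.049. TRF probes kept an r of 0.59 at 4 apart in OGD/R. Where TRFSS and TRF use the same number, their probes were not alike: over 181 such numbers measured under both, r was -0.16 in OGD/R and in control. Pairs share arrays and overlap in their members, and these correlations are descriptions.

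Within runs the direction of the ratio was often shared. All 3 probes had a higher ratio in OGD/R in 68 of the 232 runs (29.3%), beside 28.4% of fully measured runs of 3 of any token, and a lower one in 47 (20.3%), beside 22.3%. For the sum of channels, all 3 were higher in 41 (17.7%), beside 26.1%, and lower in 108 (46.6%), beside 38.8%. The ratio counts were thus near those of all tokens, and the sums were lower more often. In 3 of the 232 runs the median ratio was at least 2-fold higher. In none was it at least 2-fold lower, and in none did all 3 probes pass 2-fold. These last counts were made for TRFSS runs only, with no share over all tokens beside them.

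Only 1 run, TRFSS100007932 to TRFSS100007936, had 5 measured probes, the number set for naming a run, so runs with 3 or more measured probes, 233 in all, were used. In that run of 5 the IP share lay between 67.0% and 75.8% in OGD/R and between 68.0% and 72.4% in control, and the ratio difference had a median of 0.22 and an SD of 0.15. The highest median IP shares were those of the runs at TRFSS100005570, with 95.0% in OGD/R and 91.2% in control, TRFSS100005614, with 94.8% in OGD/R and 89.1% in control, and TRFSS100004946, with 86.4% in OGD/R and 84.4% in control. The lowest were those at TRFSS100001622, with 11.5% in OGD/R and 11.6% in control, TRFSS100007114, with 16.0% in OGD/R and 17.2% in control, and TRFSS100007122, with 18.8% in OGD/R and 17.2% in control. In the run at TRFSS100007114 the probes differed widely in brightness, with Sup signals of 210638, 6069 and 1385 in OGD/R and of 215406, 5141 and 1230 in control. Their shares lay nearer to each other, at 15.9%, 19.0% and 16.0% in OGD/R and 12.9%, 17.2% and 22.7% in control.

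The runs with the highest median ratio difference were those at TRFSS100005614 (1.11), TRFSS100006302 (1.104) and TRFSS100006298 (1.03). In the run at TRFSS100005614, IP read 3067, 2500 and 2499 in OGD/R, against 2931, 2272 and 2037 in control. Sup read 155, 138 and 140 in OGD/R, against 358, 176 and 251 in control. The lowest Sup signals that were well above background were 107 in OGD/R and 113 in control, so the Sup signals of this run were close to that floor in OGD/R. The runs with the lowest median were those at TRFSS100006078 (-0.90), TRFSS100009170 (-0.76) and TRFSS100001410 (-0.70). In the run at TRFSS100006078 the ratio differences of the 3 probes were -1.22, -0.90 and 0.12, and in that at TRFSS100009170 they were -0.76, -1.004 and 0.22, so 1 probe in each went the other way. In the run at TRFSS100001410 all 3 were lower, at -0.70, -0.76 and -0.21. With normexp background correction none of the 3 highest medians stayed past 2-fold.

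For the summed signal, the runs were named after the data were seen. The largest medians were those at TRFSS100001526 (0.52), TRFSS100001510 (0.49) and TRFSS100009494 (0.43), and the lowest those at TRFSS100001590 (-0.71), TRFSS100003270 (-0.65) and TRFSS100003910 (-0.64). None reached 2-fold. In the run at TRFSS100001510, IP read 2571, 2384 and 2831 in OGD/R, against 2467, 2024 and 2825 in control, and Sup read 6708, 6902 and 7178 in OGD/R, against 4492, 4306 and 4760 in control. Its Sup was higher in OGD/R in every probe while its IP differed little. In the run at TRFSS100003910, IP read 1061, 740 and 822 in OGD/R, against 2083, 1342 and 1116 in control, and Sup read 800, 783 and 841 in OGD/R, against 1152, 1154 and 1087 in control. Both of its channels were lower in OGD/R in all 3 probes.

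Joining runs that lie 1 skipped number apart, a grouping chosen after the data were seen, gave 405 chains, of which 73 had at least 6 measured probes. The chain of TRFSS100006294 to TRFSS100006304 had the largest median ratio difference, at 1.03 over 9 probes, with 8 of 9 higher. Its median share was 88.3% in OGD/R and 80.2% in control, and its Sup differed by a median of -1.24 and its IP by -0.15. In the chain of TRFSS100009966 to TRFSS100009976 all 9 probes had a higher ratio (median 0.55), here with IP higher by a median of 0.44 and Sup at -0.067. In the chain of TRFSS100007650 to TRFSS100007676 all 8 measured probes had a higher ratio, within a narrow range of 0.42 to 0.59. The chain of TRFSS100001510 to TRFSS100001536 had the lowest median, at -0.46 over 18 probes, 15 of them lower, with shares of 34.3% in OGD/R and 38.9% in control. For the summed signal all 9 probes were higher in the chain at TRFSS100009494 (median 0.32), and all 9 were lower in the chains at TRFSS100003902 (-0.56), TRFSS100007798 (-0.52) and TRFSS100003518 (-0.51). These chains were picked for their medians, and others were mixed, as in the chain at TRFSS100002238, where 13 of 27 ratios were higher and 14 lower in OGD/R.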

How the data were processed

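RNA of BV-2 cells was read on 1 two-colour Agilent array per group, with IP in Cy5 and Sup in Cy3. The authors deposited scanner files that hold the fluorescence intensity of each spot, taken from Agilent Feature Extraction 11.0.1.1 after its background subtraction, its detrending and its dye normalization inside each array, per the file headers. No scaling between arrays is recorded there. The error of the log10 ratio of each spot was taken from the same deposited files. The deposited flags (other values) for signals well above background, for positive and significant signals and for outliers were used as given. A deposited table by the authors, in log2 units, served as an alternative.

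Spots with an outlier mark and control spots were left out. The log2 ratio was centred on each array's median over the 4909 measured RNAs (IP and Sup well above background on each array). Single channels were scaled by the 75th percentile of RNAs detected in that channel on both arrays, and the sum by that of measured RNAs. Where a probe was well above background on 1 array only, its fold is a lower bound, set against the higher of its own signal and the lowest signal well above background on the other array, after scaling. The number of arrays limits the precision, and no p-value was computed. Medians have binomial order-statistic intervals (95%) over probes, which also treat probes as independent. The named probes are the 6 largest ratio differences and 5 largest sum differences in each direction, the 5 highest and 5 lowest shares, the 3 brightest, and the 3 largest bounds per channel and direction. Runs with at least 5 measured probes were to be named, and because 1 run had them, runs with at least 3 were used. Runs with every probe past 2-fold in 1 channel were added later, as were chains. The members and lists were chosen with earlier results of these data known. The computation was tested on simulated data, with known changes planted in spots well above background. The simulated noise was smaller than the median scanner error. That test checked the code and not how reliable 2-fold calls are. Python with numpy 2.4.6, pandas 2.3.3 and scipy 1.17.1 and R 4.3.3 with limma 3.58.1 (normexp with an offset of 50, and loess) were used. Alternatives covered background correction, loess, centring, scaling, filter, detection rule, outlier spots, threshold and the authors' table.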

Additional observations from a re-analysis of the deposited data

How the results depend on the processing

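Each group had 1 array. No paired analysis was possible because each group had only 1 array, and no array could be left out. Values near background limit the ratio, and settings that use normexp also leave out the scanner's detrending and dye normalization, since they start from median spot signals. Causes of the moves below were not tested. The numbers of probes with a ratio at least 2-fold higher and lower, 15 and 9, came to 4 and 0 under normexp, to 3 and 0 under normexp followed by loess, to 1 and 62 centred on spike-in probes, 24 and 5 in the authors' table, 70 and 116 with at least 1 channel detected, and 245 and 335 with no filter. They were 78 and 65 at 1.5-fold, 1 and 0 at 3-fold, and 9 and 0 with signals 2-fold above the detection floor, an alternative added after the data were seen. Centring on TRFSS probes left 5 lower. The median ratio difference was -0.39 with spike-in centring, 0.074 with TRFSS centring, 0.10 in the authors' table and -0.026 with at least 1 channel detected. Spike-in centring moved the median over all RNAs to -0.40, and in the authors' table the median over all RNAs was 0.091 for the ratio and 0.27 for the sum.

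The IP median was -0.041 with median scaling, -0.084 with scaling over all probes, 0.040 with spike-in scaling, 0.30 in the authors' table and 0.076 with no filter. The Sup median was -0.00090 with normexp, -0.038 with median scaling, -0.038 over all probes and -0.038 with no filter, and it reversed to 0.40 with spike-in scaling and 0.22 in the authors' table. The median of the sum was -0.011 with normexp, -0.035 with median scaling and -0.096 over all probes, and it reversed to 0.37 with spike-in scaling, 0.23 in the authors' table and 0.012 with no filter. Probes with a higher and a lower sum, 2 and 8, numbered 0 and 3 with normexp, 18 and 3 with spike-in scaling and 76 and 74 with no filter, and 7 were higher in the authors' table. Probes with higher and lower Sup, 8 and 36, numbered 0 and 8 with normexp, 100 and 14 with spike-in scaling, 20 and 12 in the authors' table, which holds 1061 of them, and 130 and 154 with no filter. Probes with higher and lower IP, 7 and 5, numbered 0 and 0 with normexp, 4 and 8 with scaling over all probes, 31 and 3 in the authors' table and 206 and 194 with no filter. Runs with every probe lower and higher in Sup, 8 and 1, numbered 2 and 0 with normexp and 5 and 10 with spike-in scaling.

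The median IP share in OGD/R and control was 36.4% and 36.6% before dye normalization, 45.4% and 46.5% with at least 1 channel detected and 48.6% and 49.4% with no filter. Detection in OGD/R and control was 66.8% and 69.5% in IP and 84.0% and 83.9% in Sup when positive and significant signals counted, and 79.0% and 82.3% in IP and 83.3% and 83.8% in Sup above the 95th percentile of negative controls. By the positive and significant rule 217 probes were detected in IP in OGD/R only, 303 in control only and 191 in Sup in OGD/R only. The likeness of probes 1 number apart was 0.66 in OGD/R and 0.65 in control for the ratio with normexp, and 0.56 in OGD/R and 0.53 in control with no filter. For the ratio difference it was 0.59 with normexp, 0.25 with at least 1 channel, 0.18 with no filter and 0.31 for numbers 4 apart, a distance added after the data were seen. The SD of the ratio difference within runs, 0.15 in the 1 run with 5 measured probes, was 0.21 with at least 3, and no run had 8. All 12 probes named for their ratio kept its sign under each of the 8 alternatives run on them. They were picked for large differences, and a change of centring moved every probe by the same smaller constant, so it could not reverse a sign. Keeping outlier spots could not either, since these probes had no such spot. Past 2-fold stayed 2 with normexp, 1 with normexp followed by loess, 7 with spike-in centring and 11 or 12 under each of the others.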
